A study of Drosophila melanogaster with 266 samples.

Results

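T4 and T5 neurons of adult male flies were compared with those of adult female flies, using the 2 libraries of the T4.T5_d1_male group and the 2 libraries of the T4.T5_d1_female group, 4 of the 266 libraries in the series. The members were chosen by their labels alone. All 4 libraries carried the same split-GAL4 driver, SS00324, which labels T4 and T5 together and, by the study's driver notes, a few cells of the central brain. The driver expressed the nuclear envelope tag UNC84-2XGFP from the 10XUAS_UNC84_attP2 reporter. Tagged nuclei were captured with TAPIN, a capture on antibody-coated beads in 2 successive steps, from pooled frozen heads of flies aged 4 to 7 days that had been kept under a light and dark cycle. Nothing in the labels says that the libraries of 1 sex came from separate crosses or cultures, so p-values measure the spread between these libraries. Another 12 libraries of T4, T5 or both, whose labels give no sex, are shown for reference. These include 2 made with the same driver, reporter and capture.

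T4 and T5 are the columnar neurons of the fly optic lobe whose dendrites carry the first direction-selective signals of the motion pathway. T4 serves brightness increments and T5 brightness decrements. They release acetylcholine and integrate input through nicotinic, muscarinic, GABA and glutamate-gated receptors. Male flies carry a single X chromosome and a Y chromosome, and the dosage compensation complex, which contains the non-coding RNAs roX1 and roX2 and the proteins Msl-1, Msl-2, Msl-3, Mof and Mle, binds the male X and raises its transcription. The comparison asks which genes differ between the sexes in a neuron that serves vision in both, and how the level of the X compares with that of the autosomes.

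Values are TPM (transcripts scaled by length to a common library total), in which levels of genes within a library can be compared. The number of reads behind a value is unknown, because the tables hold no read counts. The libraries differed along an axis that crosses the sexes. Male replicate 1 and female replicate 2 had 10312 and 11029 coding genes above 0 and drew 1.48% and 1.99% of their TPM from ribosomal RNA, whereas male replicate 2 and female replicate 1 had 11539 and 11684 coding genes and 5.26% and 4.82% ribosomal RNA. Over the 6603 genes tested, male replicate 2 correlated with female replicate 1 at r = 0.94 and male replicate 1 with female replicate 2 at r = 0.91, against r = 0.91 between the male replicates and r = 0.94 between the female replicates. The part of this axis in the results was not tested beyond the alternatives given.

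Markers of T4 and T5 were present in both sexes. Of 9 transcription factors of T4 and T5, 8 were present in all 4 libraries, among them SoxN, a Sox-domain factor, at 2201.04 and 2462.28 TPM in males and 2606.28 and 2365.56 TPM in females, and Sox102F at 825.0 and 997.03 TPM in males and 932.42 and 892.61 TPM in females. The proneural factor ato, which acts in the precursors, was at most 0.79 TPM. The neuronal genes elav, nSyb and Syt1 lay at 776.73 TPM or more in every library. Markers of other cells were low but not absent. Repo, the defining factor of glia, was at most 0.68 TPM, while 3 of 12 glial genes passed the filter and the list summed to 114.34 and 133.79 TPM in males and 121.24 and 123.68 TPM in females. Of 15 photoreceptor genes only norpA and ninaE passed the filter. The rhodopsin gene ninaE was at 54.15 and 51.53 TPM in males and 83.40 and 58.62 TPM in females, all below the 298.4 and 285.56 TPM of the libraries of the same driver with no sex given.

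Genes were tested with limma on log2(TPM + 1), for genes that reached 10 TPM in 2 or more libraries, with Benjamini-Hochberg adjustment over all genes. Of 6603 genes tested, 8 passed an adjusted p of 0.05, which is 0.121% of them. In this fit all 8 were higher in males and none was higher in females. At an unadjusted p under 0.05 there were 153 genes, or 2.32%, with 76 higher (1.15%) and 77 lower (1.17%) in males. The 8 genes were roX1, roX2, 5 copies of the Suppressor of Stellate repeat and CR40719, a non-coding gene on an unplaced scaffold. All but roX1 reached 10 TPM in the male libraries only, so the filter fixed their direction. Females carry no Y chromosome, so the direction of Y-linked calls was also fixed in advance. The number of calls depended on single libraries. Without male replicate 1 it was 5 (1 higher and 4 lower in males), without male replicate 2 it was 97 (26 higher and 71 lower), without female replicate 1 it was 41 (38 and 3) and without female replicate 2 it was 24 (20 and 4). Of the 8 genes, only roX1 reached the level needed for a test without a male library. The directions also depended on the fit: all libraries that passed quality control gave 40 higher and 18 lower. The crossed replicate block, an alternative added after the data were seen that pairs the libraries of like composition, gave 84 higher and 136 lower. Its pairing was taken from these same data and not from the labels, so its p-values are no independent support for a gene.

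The non-coding RNAs of the dosage compensation complex matched the labels. The gene roX1 (X: 3857230 to 3862697) was at 2834.59 and 2654.17 TPM in males and 36.33 and 36.12 TPM in females, a difference of 6.20 ± 0.21 (SE) on the log2 scale (limma, adjusted p = 0.000367). The gene roX2 (X: 11579065 to 11580432) was at 297.45 and 444.37 TPM in males and 2.00 and 1.53 TPM in females, a difference of 7.05 ± 0.43 (SE) on that scale (limma, adjusted p = 0.00648). Neither was at 0 in females. The RNA of roX1 was carried in both sexes mainly by isoform RA, at 1651.94 and 2045.78 TPM in males and 32.22 and 26.04 TPM in females, while isoform RB was at 778.82 and 437.7 TPM in males and 0.74 and 1.68 TPM in females. Over the transcript table none of 10233 transcripts passed an adjusted p of 0.05 with limma (0%), against 188 (1.84%) at an unadjusted p under 0.05, and the fit to all 16 T4 and T5 libraries called 33.

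The protein genes of the complex did not follow its RNAs. The mRNA of msl-2, the subunit whose translation is blocked in females, was at 113.65 and 56.30 TPM in males and 58.72 and 77.89 TPM in females, so that the female values lay between the male ones. The genes msl-1, msl-3 and mle, which encode scaffold, chromodomain and helicase subunits, differed by -0.22, -0.27 and 0.05 on the log2 scale (male minus female), and mof, the X-linked acetyltransferase, by -0.39. None of the 5 protein genes passed the test, and in all of them the male and female libraries overlapped.

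RNA from the Y chromosome was found in the male libraries. Whether it came from T4 and T5 or from other cells of the head was not tested. Of 113 Y-linked genes in the table, 66 were above 0 TPM in both male libraries, and 58 of those were listed at 0 in both female libraries. No Y-linked gene reached 4 TPM in a female library, where the highest value was 3.76 TPM. The Y-linked genes summed to 1635.35 and 1714.3 TPM in males and to 10.05 and 6.36 TPM in females, with 676.97 and 562.05 TPM in the libraries with no sex given. Most of the male sum belonged to Suppressor of Stellate copies, a repeat that silences the X-linked Stellate genes in the testis: the 27 copies placed on the Y summed to 1132.0 and 1140.9 TPM in males and to 1.20 and 3.08 TPM in females. The copies are nearly identical, so the division of reads among them is uncertain.

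Most of the 12 listed protein genes of the Y, which are known for their function in spermatogenesis, were low but present in males. The 12 summed to 56.05 and 44.4 TPM in males, against 197.72 and 274.85 TPM for all 23 Y-linked coding genes. Outside the list, CG45770 was at 48.18 and 49.26 TPM and CG45764 at 37.68 and 65.31 TPM in males. Both were listed at 0 in females. Of 12 listed, Pp1-Y2, a protein phosphatase, was the highest, at 26.59 and 20.45 TPM in males and listed at 0 in both females. It was the only member to reach the level needed for a test, and its adjusted p was 0.22. The dynein heavy chain gene kl-3 was at 6.48 and 6.64 TPM and Ppr-Y at 7.24 and 5.07 TPM in males, both listed at 0 in females, while Pp1-Y1 was listed at 0 in all 4 libraries. In kl-2, kl-5, ORY, ARY, WDY and CCY the male values ran from 0.47 to 6.20 TPM, and the only female value above 0 was ARY at 0.50 TPM. PRY was above 0 in male replicate 2 alone, at 0.58 TPM, and FDY was listed at 0 in all 4 libraries.

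**Figure D1:**
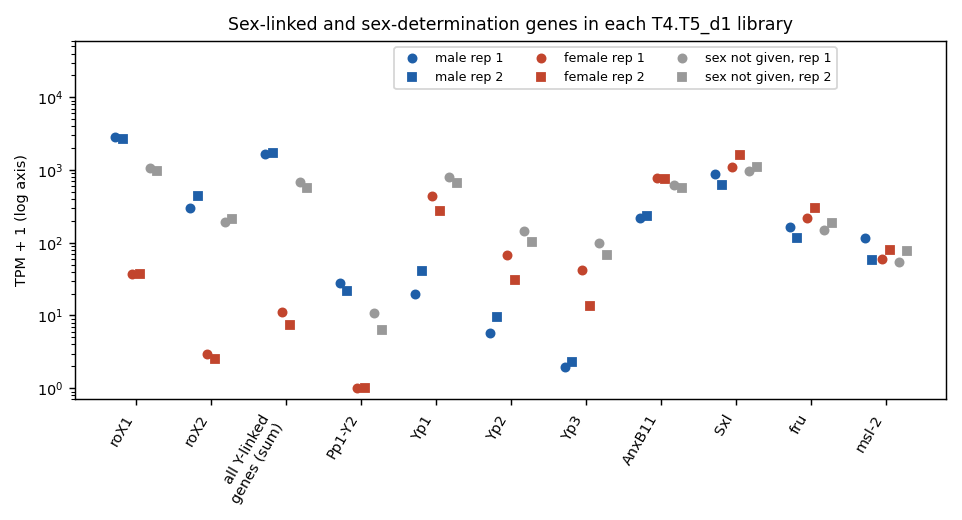
TPM + 1 on a log axis for sex-linked and sex-determination genes in the 2 male libraries (blue), the 2 female libraries (red) and the 2 libraries of the same driver with no sex given (grey); circles are replicate 1 and squares replicate 2. The roX RNAs and the Y-linked sum were high in males, the yolk protein genes and AnxB11 were high in females, and msl-2 overlapped between the sexes.

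In the sex determination cascade, Sxl and fru were the members with the lowest unadjusted p. Sxl, the X-linked splicing regulator that is on in females, was at 886.34 and 612.29 TPM in males and 1101.18 and 1591.7 TPM in females. The groups did not overlap, and the difference of -0.84 ± 0.31 (SE) on the log2 scale had an unadjusted p of 0.033 and did not pass adjustment (limma, adjusted p = 1.0). The fru gene on 3R, which encodes BTB-zinc finger proteins and has male-specific splicing in neurons of courtship circuits, was at 164.74 and 115.7 TPM in males and 216.21 and 300.3 TPM in females, a difference of -0.88 ± 0.30 (SE) that did not pass adjustment either (limma, adjusted p = 1.0). In the crossed replicate block, whose pairing was taken from these same data, both passed (limma, adjusted p = 5.59e-05 for Sxl and 0.000487 for fru). That is no independent support for either. The fru isoforms RH and RO hold identical values in the table and cannot be told apart there. They were listed at 0 in both males and were at 17.97 and 26.34 TPM in females (limma, unadjusted p = 0.0366). Isoform RC was at 43.44 and 33.54 TPM in males and 76.54 and 100.9 TPM in females (limma, unadjusted p = 0.0217). RK was at 54.11 and 37.48 TPM in males and 32.97 and 43.22 TPM in females. None of these isoforms passed adjustment.

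The other regulators gave no separation of that size. The mRNA of tra, which is spliced under the control of Sxl, was at 98.29 and 242.12 TPM in males and 227.79 and 106.18 TPM in females. Its partner tra2 was at 15.69 and 34.69 TPM in males and 29.17 and 26.68 TPM in females. The transcription factor dsx, the other target of tra, stayed below 5 TPM in every library (2.65, 2.42, 4.60 and 2.83 TPM) and was not tested. Values for ix, her, snf and fl(2)d, which act with these regulators, differed by 0.17, 0.26, -0.24 and -0.04 on the log2 scale. The members vir, sisA, sc, run, dpn and dsf were too low for a test, at 7.08 TPM or less.

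Yolk protein genes had higher values in both female libraries and missed the threshold. Yp1 was at 18.87 and 40.04 TPM in males and 435.16 and 271.6 TPM in females, a difference of -3.59 ± 0.43 (SE) (limma, adjusted p = 0.072). Over the alternatives its adjusted p ranged up to 0.262. The fits that left out 1 library gave differences from -4.12 to -3.07 with an adjusted p under 0.05, but in each the sex with a lone library is assumed to vary like the other. Yp2 and Yp3 lay lower, at 4.70 and 8.41 TPM and at 0.93 and 1.26 TPM in males, against 67.12 and 29.49 TPM and 41.33 and 12.47 TPM in females (limma, adjusted p = 0.603 and 0.651). The libraries of the same driver with no sex given lay above both females for all 3 genes, at 810.04 and 657.74 TPM for Yp1, 142.11 and 102.22 TPM for Yp2 and 98.29 and 67.87 TPM for Yp3. Yolk proteins are made in fat body. Of the 14 listed fat body genes other than yolk proteins, 3 passed the filter and 11 did not, at 8.58 TPM or less. The fat body genes Fbp1, Fbp2, AkhR and Lsp2 were between 0 and 1.87 TPM in the 4 libraries. The 14 genes summed to 285.65 and 361.19 TPM in males and 363.64 and 303.76 TPM in females. These sums overlapped between the sexes. Whether the yolk protein RNA came from fat body was not tested. Of the other sex-biased genes of head fat body, fit was listed at 0 in all 4 libraries and sxe2 was at 2.47, 5.17, 4.43 and 3.79 TPM.

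A gene outside the lists, AnxB11, was chosen after its values were seen. AnxB11 encodes a calcium-dependent membrane-binding annexin on the X (16416958 to 16422265). It was at 216.14 and 234.77 TPM in males, 785.67 and 749.95 TPM in females, and 624.28 and 567.24 TPM in the libraries with no sex given. The difference was -1.76 ± 0.22 (SE) (limma, adjusted p = 0.0745), and it was called in the fit to all 16 T4 and T5 libraries (adjusted p = 0.0023). Its values stayed between -1.82 and -1.70 on the log2 scale in every alternative, with adjusted p up to 0.382. The transcription factor bi, one of the T4 and T5 factors and also X-linked, was at 116.44 and 91.28 TPM in males and 158.2 and 226.97 TPM in females (-0.87 ± 0.29, SE, unadjusted p = 0.0227, limma, adjusted p = 1.0). It passed in the crossed replicate block, whose pairing was taken from these same data (limma, adjusted p = 0.00135).

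Transmitter, receptor, channel and release genes formed the lists of neural genes. Of 261 genes listed, 257 were in the table and 142 passed the filter. The other 115 were at most 15.42 TPM in any of the 4 libraries. None of the 142 passed an adjusted p of 0.05 with limma, against 0.121% of all genes, and 0 had an unadjusted p under 0.05, against 2.32% of all genes. The crossed replicate block, whose pairing was taken from these same data, called 2. Because a p that misses a threshold does not show equal levels, the 90% interval of each difference was set against a limit of 1 on the log2 scale, a 2-fold difference. The interval lay within 2-fold for 96 of 142 neural genes, or 67.6%, and for 40.2% of all genes tested. The number was 52 without male replicate 1, 52 without male replicate 2, 32 without female replicate 1, 22 without female replicate 2 and 36 with the replicate block, and 18 genes lay within a limit of 0.58. Among genes with at least 50 TPM the shares were higher, at 85.3% of 102 neural genes and 68.9% of all genes. Intervals did not narrow steadily with level, as the SE was 0.22 for mAChR-A and 0.49 for DopEcR, the highest neural gene. When the autosomal medians of the libraries were set equal, 70 neural genes (49.3%) and 46.1% of all genes lay within it.

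The variation of the neural genes followed the axis across libraries more than sex, as did that of all genes tested. Of the 142 genes, 77 were higher in male replicate 1 than in male replicate 2 and also higher in female replicate 2 than in female replicate 1, which is 54.2%, against 21.8% of all genes. The opposite pattern held for 42 of the 142 genes and for 3812 of the 6603 genes tested. Most genes of both sets thus followed the axis, and the sets differed in its direction. The median absolute difference of the neural genes was 0.41 on the log2 scale between the male libraries and 0.34 between the female libraries. Between male replicate 2 and female replicate 1 it was 0.13, and between male replicate 1 and female replicate 2 it was 0.19. The neural genes of a male and a female library of like composition were thus closer than those of the replicates of either sex. This was not particular to neural genes. Over all 6603 genes tested the median was 0.58 between the male libraries and 0.46 between the female libraries. It was 0.20 between male replicate 2 and female replicate 1 and 0.32 between male replicate 1 and female replicate 2.

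The genes of the cholinergic phenotype were at close levels. ChAT, the enzyme that synthesizes acetylcholine, was at 121.94 and 131.91 TPM in males and 126.66 and 128.09 TPM in females, with a difference of -0.01 (90% interval -0.47 to 0.46). The vesicular transporter VAChT, which shares the start of its locus with ChAT on 3R (18705501 to 18718916 for VAChT and to 18732344 for ChAT), was at 490.1 and 369.86 TPM in males and 342.79 and 430.81 TPM in females. The esterase Ace, which degrades the transmitter, was at 1119.25 and 695.12 TPM in males and 725.01 and 1066.26 TPM in females. CG7708, the choline transporter, was at 190.97 and 176.87 TPM in males and 129.68 and 154.32 TPM in females, and was the only gene of these 4 whose groups did not overlap (0.38, 90% interval -0.09 to 0.84). All 4 intervals lay within 2-fold. VAChT and ChAT overlap in the genome, so reads in their shared exon can be assigned to either.

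Genes for other transmitters were mostly low. Of 16 listed, 5 were tested and 2 lay within 2-fold. VGAT, the vesicular GABA transporter, was at 155.78 and 133.87 TPM in males and 142.25 and 160.88 TPM in females. The glutamate transporter of the plasma membrane Eaat2 was at 73.91 and 112.14 TPM in males and 110.55 and 60.29 TPM in females. The probability of expression that the authors modeled for Eaat2 was 0 in all 4 libraries. The paper names Eaat2 among the genes enriched in photoreceptors, so these values do not show expression in T4 and T5. Gat was at 44.25 and 38.73 TPM in males and 27.20 and 43.37 TPM in females, and Ddc at 13.04 and 17.73 TPM in males and 14.70 and 8.52 TPM in females. For Ddc the modeled probability was 0 in all 4 libraries as well. The 11 members of this list that were not tested were at most 11.6 TPM in any of the 4 libraries. Gad1, which makes GABA, was at 11.60, 4.62, 6.56 and 6.11 TPM in male replicates 1 and 2 and female replicates 1 and 2, and VGlut, the vesicular glutamate transporter, was at 6.04, 7.25, 4.39 and 6.76 TPM. The largest difference was that of Tbh, the X-linked enzyme of octopamine synthesis, at 5.68 and 8.52 TPM in males and 12.02 and 15.22 TPM in females (-0.87, 90% interval -2.10 to 0.37). Its modeled probability was 0.11 or less in all 4 libraries.

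Among receptors for acetylcholine, 7 of 9 tested nicotinic subunits and both tested muscarinic receptors lay within 2-fold. The subunit nAChRalpha5 was at 1275.05 and 696.61 TPM in males and 639.69 and 1074.67 TPM in females, with the female values on either side of male replicate 2. The subunit nAChRbeta1 was at 734.98 and 462.96 TPM in males and 504.71 and 715.28 TPM in females, both female values between the male ones. The exception in separation was the X-linked subunit nAChRalpha3 (X: 8276200 to 8367169), at 139.8 and 95.37 TPM in males and 164.36 and 219.12 TPM in females. Its difference was -0.71 ± 0.30 (SE, 90% interval -1.29 to -0.13), with an unadjusted p of 0.0532 (limma, adjusted p = 1.0). Of the muscarinic receptors, mAChR-A was at 416.6 and 377.44 TPM in males and 317.7 and 331.71 TPM in females, and mAChR-B at 133.67 and 195.59 TPM in males and 224.97 and 129.74 TPM in females.

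Of the receptors for GABA and glutamate, 3 of 6 and 3 of 7 tested genes lay within 2-fold. Rdl, the chloride channel subunit gated by GABA, was at 2357.94 and 1481.95 TPM in males and 1473.43 and 2090.25 TPM in females (0.09, 90% interval -0.58 to 0.76). The metabotropic GABA-B-R1 was at 319.14 and 284.63 TPM in males and 263.38 and 312.02 TPM in females. The X-linked GABA-gated subunit gene CG8916 had the largest difference of the 6 tested GABA receptors, at 33.84 and 31.47 TPM in males and 51.86 and 32.08 TPM in females (-0.31, 90% interval -1.11 to 0.48). The glutamate-gated chloride channel GluClalpha was at 855.9 and 560.51 TPM in males and 536.97 and 674.61 TPM in females (0.20, 90% interval -0.36 to 0.76). Nmdar2, an X-linked subunit of the NMDA receptor, was at 234.75 and 171.18 TPM in males and 206.12 and 276.23 TPM in females. The auxiliary subunit Neto, X-linked as well, was lower at 14.99 and 17.58 TPM in males and 23.15 and 27.46 TPM in females (-0.61, 90% interval -1.53 to 0.32).

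Receptors for amines included the neural gene with the highest level. DopEcR, a receptor for dopamine and ecdysteroids, was at 12552.3 and 7005.29 TPM in males and 6662.74 and 10146.8 TPM in females (0.19, 90% interval -0.76 to 1.14), an interval that reached past 2-fold. The octopamine receptor Octbeta2R was at 268.25 and 257.85 TPM in males and 275.81 and 326.39 TPM in females. The X-linked dopamine receptor Dop2R was at 37.32 and 44.72 TPM in males and 55.52 and 56.84 TPM in females (-0.45, 90% interval -1.09 to 0.19), without overlap. In this list 10 of 14 tested genes lay within 2-fold.

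Of the neuropeptide receptors, 16 of 40 were tested and 7 lay within 2-fold. CNMaR, the receptor for CNMamide, was at 262.9 and 173.62 TPM in males and 168.79 and 200.83 TPM in females, and SIFaR, the receptor for SIFamide, at 163.35 and 138.88 TPM in males and 141.18 and 151.99 TPM in females. The X-linked receptor CCKLR-17D1 had the largest difference and one of the lowest levels, at 10.22 and 13.15 TPM in males and 4.12 and 10.64 TPM in females (0.71, 90% interval -0.69 to 2.10). SPR, the receptor for sex peptide and myoinhibitory peptides, was at 14.95 and 15.89 TPM in males and 24.67 and 20.19 TPM in females. Among 36 precursors, 8 were tested and 2 lay within 2-fold. Proc, the precursor of proctolin, led at 453.09 and 344.89 TPM in males and 275.59 and 377.45 TPM in females, followed by the X-linked amn at 62.46 and 75.73 TPM in males and 81.45 and 84.50 TPM in females. For amn, the probability of expression that the authors modeled was 0.01 or less in all 4 libraries. Nplp1 had the largest difference, at 6.65 and 7.86 TPM in males and 10.11 and 10.53 TPM in females (-0.46, 90% interval -1.70 to 0.79). Its modeled probability was 0.01 or less in all 4 libraries as well.

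**Figure D2:**
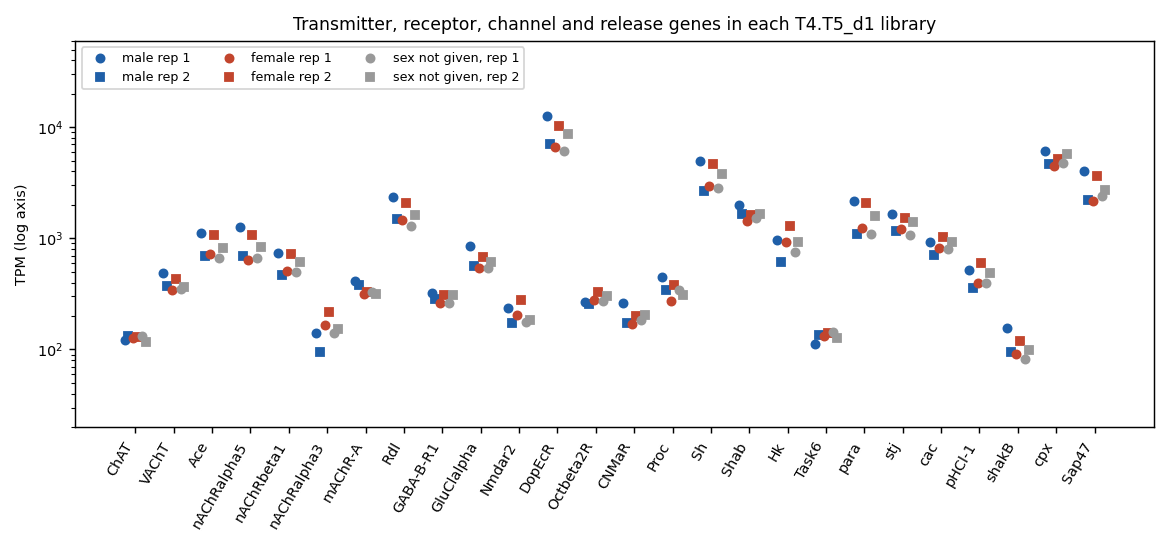
TPM on a log axis of 26 transmitter, receptor, channel and release genes in the 2 male libraries (blue), the 2 female libraries (red) and the 2 libraries of the same driver with no sex given (grey); circles are replicate 1 and squares replicate 2. For most genes the red and blue points interleave, with male replicate 1 and female replicate 2 above the other pair.

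Potassium channels that set the shape of the membrane response were at high levels in both sexes. Of 13 tested voltage- and calcium-gated channel genes, 11 lay within 2-fold. Sh, the X-linked A-type channel (X: 17924307 to 18063247), was at 4929.99 and 2686.94 TPM in males and 2976.77 and 4621.01 TPM in females (-0.03, 90% interval -0.85 to 0.80). Shab, a delayed rectifier on 3L, was at 1984.42 and 1649.37 TPM in males and 1432.39 and 1605.84 TPM in females, with both males above both females by 0.25 (90% interval -0.26 to 0.77). The beta subunit of the Shaker channel, Hk, also X-linked, had the largest difference of this list, at 968.55 and 612.24 TPM in males and 923.98 and 1279.48 TPM in females (-0.50, 90% interval -1.11 to 0.12). Hk and nAChRalpha3 were the 2 neural genes called by the crossed replicate block, whose pairing was taken from these same data (limma, adjusted p = 0.00699 and 0.00529). Of 4 tested leak channels, 1 lay within 2-fold. The tandem-pore channel gene CG1688 was at 107.24 and 314.97 TPM in males and 308.27 and 152.77 TPM in females, Task7 at 20.95 and 49.97 TPM in males and 45.58 and 43.08 TPM in females, and Task6 at 111.22 and 133.94 TPM in males and 130.88 and 140.47 TPM in females.

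Sodium and calcium channels gave the same picture, with 15 of 20 tested genes within 2-fold. The sodium channel para (X: 16455027 to 16533096) was at 2173.68 and 1092.39 TPM in males and 1231.33 and 2072.0 TPM in females (-0.05, 90% interval -0.88 to 0.77). The calcium channel subunit stj was at 1669.47 and 1166.98 TPM in males and 1202.7 and 1528.7 TPM in females. The presynaptic calcium channel cac, X-linked, was at 921.49 and 707.87 TPM in males and 813.47 and 1032.38 TPM in females. The largest difference was that of na, the X-linked sodium leak channel, at 78.00 and 66.05 TPM in males and 101.2 and 114.85 TPM in females (-0.58, 90% interval -1.11 to -0.05, unadjusted p = 0.0759).

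The smaller channel lists held few tested genes. The proton-gated chloride channel pHCl-1 was at 520.08 and 353.76 TPM in males and 399.49 and 598.28 TPM in females, and Best1, a bestrophin chloride channel, at 158.07 and 201.47 TPM in males and 173.48 and 127.67 TPM in females. Of the gap junction proteins, the X-linked innexin shakB was at 155.84 and 94.27 TPM in males and 90.28 and 118.74 TPM in females. Inx3 was the neural gene with the largest difference in any list, at 29.92 and 20.48 TPM in males and 14.34 and 9.04 TPM in females (1.05 ± 0.55, SE, 90% interval -0.01 to 2.12, unadjusted p = 0.103, limma, adjusted p = 1.0). Of the TRP and mechanosensory channels, Trpm was at 61.38 and 84.30 TPM in males and 77.74 and 64.34 TPM in females, Piezo at 42.28 and 57.40 TPM in males and 54.67 and 45.31 TPM in females, and Trpml at 7.16 and 14.27 TPM in males and 12.97 and 10.40 TPM in females. In these 3 genes the male and female libraries overlapped.

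All 22 tested genes of the 24 listed for the machinery of vesicle release lay within 2-fold. Complexin, cpx, which clamps and promotes fusion, was at 6139.53 and 4706.13 TPM in males and 4513.43 and 5209.04 TPM in females, and Sap47, a synapse-associated protein, at 4051.79 and 2234.11 TPM in males and 2171.21 and 3605.53 TPM in females. Sytalpha, a synaptotagmin, had the largest difference, at 72.38 and 89.30 TPM in males and 97.79 and 112.18 TPM in females (-0.38, 90% interval -0.91 to 0.15). Of the 22 genes, 17 were high together in male replicate 1 and female replicate 2.

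**Figure D3:**
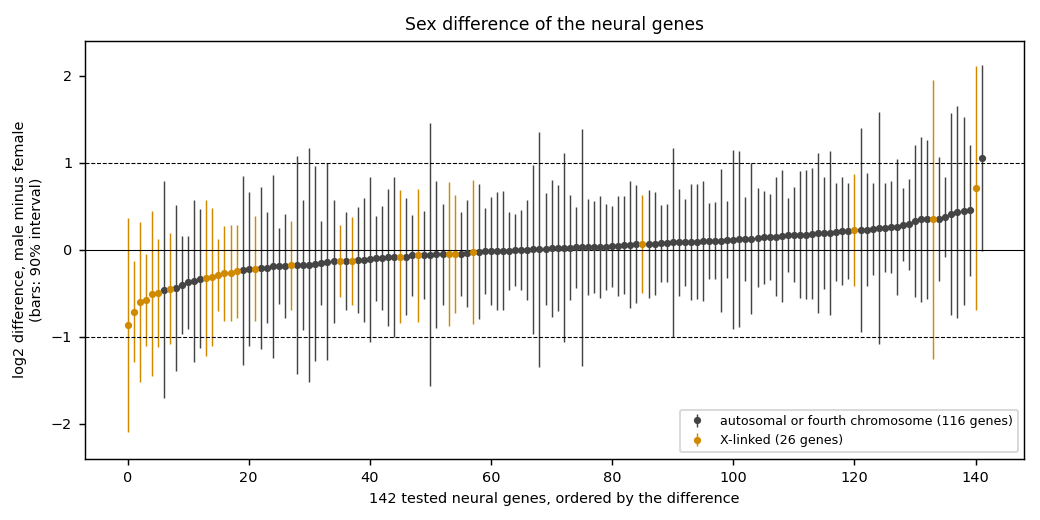
Male minus female difference on the log2 scale with its 90% interval for the 142 tested neural genes, ordered by the difference; dashed lines mark a 2-fold difference. X-linked genes (26, orange) lie mostly at the left end, and 96 of the 142 intervals stay between the dashed lines.

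The lower end of the neural genes was mostly X-linked. Of 26 X-linked neural genes tested, 22 had a male value below the female one, with a median difference of -0.23, and in 11 of the 26 both male libraries lay below both female libraries, while in none did both lie above. Among the 111 neural genes on the autosomal arms 2L, 2R, 3L and 3R the median was 0.03, and both males lay below both females in 5 and above in 8. In all genes tested, the males lay below in 11.1% and above in 9.57%. The X-linked neural genes were part of a shift of the whole X.

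Over the 1107 X-linked genes tested, the median difference was -0.33 on the log2 scale, with quartiles of -0.58 and -0.07, and 886 genes had a lower value in males. The autosomal arms had medians of 0.01 (2L, 1224 genes), -0.01 (2R, 1291 genes), -0.03 (3L, 1340 genes) and -0.00074 (3R, 1484 genes), and chromosome 4 had 0.04 (85 genes). The X-linked median minus that of the 5339 autosomal genes was -0.32, so that the male X stood at 80.3% of its female level relative to the autosomes. Both male libraries lay below both female libraries for 361 X-linked genes, or 32.6%, and above for 6.32%, compared with 6.89% below and 9.57% above on the autosomal arms. At an unadjusted p under 0.05, 71 X-linked genes were lower and 10 were higher in males, against 6 lower and 31 higher autosomal genes. The X-linked genes to pass adjustment in this fit were roX1 and roX2, both higher in males. The fit to all libraries that passed quality control called 58 of 6603 genes. Of these, 21 were X-linked, 18 of them lower in males. The crossed replicate block called 220 of 6603 genes, of which 136 were X-linked, 126 of them lower. Its pairing was taken from these same data, so its counts are no independent support for a shift of the X. Because TPM is a share of a fixed total, this is a difference between the X and the autosomes and not an absolute one.

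**Figure D4:**
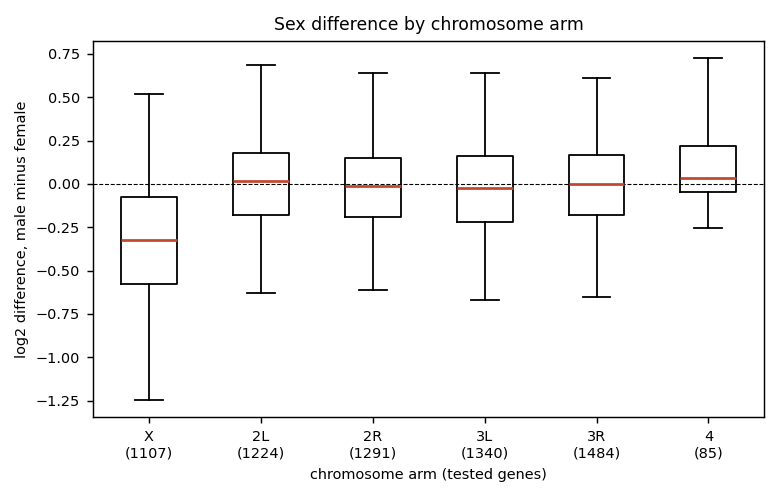
Male minus female difference on the log2 scale by chromosome arm; the box spans the quartiles, the red line is the median and the whiskers reach the 5th and 95th percentiles of the tested genes, whose number is given under each arm. The X (median -0.33) lies below the autosomal arms and chromosome 4, which center near 0.

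The shift was found at all levels of expression and along the length of the X. In quartiles of X-linked genes by mean TPM, X minus autosome was -0.30, -0.31, -0.32 and -0.31 from the lowest quartile to the highest, with autosomal genes in the same ranges of TPM. The X-linked genes were also split by position, from 127449 to 23282931, into 5 groups of like size, whose medians were, in order, -0.27, -0.38, -0.29, -0.33 and -0.33. The 1028 X-linked coding genes gave X minus autosome -0.32, and the 79 non-coding genes -0.19. For neural genes it was -0.27.

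The same level was then taken in each library, as the median log2(TPM + 1) of X-linked genes minus that of autosomal genes. It was -0.11 and -0.16 in the male libraries and 0.13 and 0.23 in the female libraries, with no overlap. The means were -0.13 ± 0.037 (SD, n = 2) in males and 0.18 ± 0.068 (SD, n = 2) in females, a difference of -0.31. By exact permutation of the libraries (two-sided) p was 0.333, the smallest that 2 libraries against 2 can give. The 4 pairings of a male with a female library gave X minus autosome from -0.40 to -0.24, and the pairs of like library composition gave -0.32 (male replicate 1 with female replicate 2) and -0.32 (male replicate 2 with female replicate 1). Within a sex, replicate 1 minus replicate 2 gave 0.12 in males and -0.10 in females. The 12 libraries with no sex given ran from 0.03 to 0.32, with a median of 0.22, all above both males, and the 2 of the same driver were at 0.03 and 0.07, between the males and the females.

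**Figure D5:**
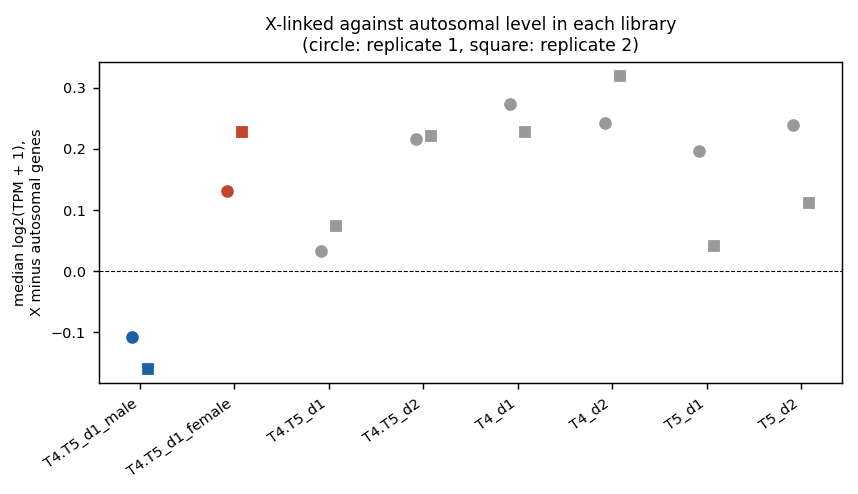
Median log2(TPM + 1) of X-linked genes minus that of autosomal genes in each T4, T5 and T4.T5 library, by driver (male blue, female red, no sex given grey; circle replicate 1, square replicate 2). Both male libraries lie below 0 (-0.11 and -0.16) and all 14 other libraries lie above it.

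The on and off states that the authors modeled for each gene and library gave a further view. A state was clear where both libraries of a sex had a probability of at least 0.8 (on) or of at most 0.2 (off). By the paper's methods, a gene described by a single distribution takes the same probability in all libraries. The state of such a gene could not differ between the sexes, and these genes were not separated here. The shares of like states below are therefore partly set by the model. Of 12377 modeled genes, 9358 had a clear state in both sexes, and 99.5% of these had the same state in both, 4560 on and 4751 off. Among 252 modeled neural genes, 218 had a clear state, 106 on in both sexes and 112 off in both, and none differed. Of the 47 genes that differed over the whole table, 26 were on in males and off in females, with 8 of them on the Y, including Pp1-Y2, kl-3 and Ppr-Y. The other 21 were off in males and on in females. Of these, 11 were among the 7817 autosomal genes with a clear state in both sexes, and 10 were among the 1410 X-linked ones. Those 10 were low, and the highest 2 were CG32500, listed at 0 in both males and at 21.95 and 25.25 TPM in females, and CG15308, listed at 0 in males and at 16.84 and 19.75 TPM in females. Near-identical copies in the genome can share reads, so the 0 of a single copy is uncertain.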

How the data were processed

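Nuclear RNA was amplified and sequenced from 2 male and 2 female T4.T5_d1 libraries. The authors trimmed reads, estimated abundance with kallisto 0.43.1 against Ensembl transcripts (build dm6, per the labels), spike-ins and tag constructs, and deposited TPM values per gene and transcript. Spike-ins, tag and ribosomal RNA are part of these TPM values, which were not rescaled here. The deposited fraction values are the authors' probabilities of expression, from a mixture model fitted to each gene. No read counts were used, so depth is unknown and precision is given by the spread between libraries. Columns of other samples were left out (63 of the gene table and 250 of the transcript table).

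Groups were taken from the labels. Males and females were compared with limma 3.58.1 in R 4.3.3 (lmFit and eBayes with trend, two-sided) on log2(TPM + 1), for features that reached 10 TPM in 2 or more libraries, with Benjamini-Hochberg adjustment at 0.05, and the script was tested on simulated data. Summaries used Python 3.11.15 with pandas 2.3.3 and scipy 1.17.1, which gave the exact permutation test. Coordinates came from Ensembl release 115 (BDGP6.54), which matched 17598 of 17736 genes by identifier and 51 by symbol. The autosomal arms were 2L, 2R, 3L and 3R.

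Named genes were every gene past the threshold, roX1, roX2, the yolk protein genes, the listed sex genes, the 2 highest members and the member with the largest difference of each neural list, and the 3 highest X-linked neural genes. Others were chosen after their values were seen. Members and lists were chosen with earlier results of these data known. Alternatives were other pseudocounts, filters and scalings, a fit without trend, fits to more libraries, replicate blocks, other intervals and thresholds, and leaving out each library. The crossed block, single autosomal arms as reference and leaving out roX1 and roX2 were added after the data were seen.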

Additional observations from a re-analysis of the deposited data

How the results depend on the processing

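The X-linked median minus the autosomal median kept its sign in every alternative, from -0.34 to -0.27 when no library was left out and from -0.35 to -0.26 when 1 library was left out. With each library left out in turn, the male minus female difference in the X to autosome level ran from -0.36 to -0.26, and shared states ran from 95.9% to 98.4%. Counts of genes called moved from 8 to 24 with all T4 and T5 libraries in the fit, 58 with all libraries that passed, 2 at 50 TPM or more, 5 with no filter, with a pseudocount of 0.1 or with ribosomal RNA removed, 30 without a trend and 15 with quantile normalization; without single libraries they ran from 5 to 97. Transcripts called moved from 0 to 33 with all T4 and T5 libraries and ran from 2 to 61 without single libraries. The same-numbered libraries shared only a number: the correlation of their deviations was -0.53 over 6603 genes. The replicate block on those numbers called 18 genes and 5 transcripts, and 36 neural genes lay within 2-fold. The crossed block called 220 genes, 2 transcripts and 2 neural genes. Within a limit of 0.58 on the log2 scale lay 18 neural genes, and without single libraries 22 to 52 lay within 2-fold. The causes of these changes were not tested. The depth behind each TPM is unknown, so its limit on low values could not be given.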
